A study of Callithrix jacchus with 3 samples.

Results

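Small RNAs of 26 to 32 nt whose first base is A were described in the testis of Callithrix jacchus, the common marmoset, a small primate of South America. They were selected by length and first base alone, whatever their abundance. MARWI-IP, the small RNA recovered with the marmoset PIWI protein MARWI, held 708963 such sequences of 6244480 distinct sequences of this length, with 4254394 of 106621469 reads. Total small RNA held 209451 of 2188395 distinct sequences, with 604038 of 12001432 reads. The union was 848038 distinct A-first sequences, and 70376 of them were in both datasets. MARWI-IP came from wild-type testes of animals aged 41 and 51 months, deposited as 1 column for both replicates. Total small RNA came from a wild-type testis at 41 months of age, separated by size on a gel. No immunoprecipitation with a control antibody was analysed here, so RNA carried along in the recovery cannot be told apart from RNA that MARWI bound. With 1 column of values for each dataset there was no spread between samples and no test between the datasets. The 95% intervals given are exact ones (Clopper-Pearson). Since reads carry no molecular identifiers, they and the limits for counts of 0 reflect counting error alone.

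PIWI proteins of the germ line bind piRNAs, small RNAs longer than microRNAs that guide the cleavage of complementary transcripts. Most piRNAs begin with U. In the ping-pong cycle, known from flies and mice, a piRNA with U at its first base directs a cut opposite its 10th base, so the RNA made from the cut strand has A at position 10 and may begin with any base. Sequences beginning with A are therefore a minority class in which the first-base preference is absent and position 10 can be read on its own. Size-selected libraries of this length also hold fragments of other RNAs, such as small nucleolar RNAs (snoRNAs).

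The A-first sequences with the most reads in MARWI-IP are printed first, because 2 groups of them that share their first 20 bases govern the averages given below. Sequences are written 5′ to 3′ with T for U, as deposited, and the capitals mark positions 1 and 10. A group of sequences that share the first 20 bases is called an end and is named by its first 9 letters.
Aacgtggaa, 30 nt: AacgtggaaTtctgggcacgcagctcatcc
Acaaacaac, 29 nt: AcaaacaacTtgaacgctgacatcttgga
Aacgtggaa, 29 nt: AacgtggaaTtctgggcacgcagctcatc
Aacgtggaa, 31 nt: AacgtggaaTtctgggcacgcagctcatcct
Acaaacaac, 31 nt: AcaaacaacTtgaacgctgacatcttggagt
Atcaatcct, 30 nt: AtcaatcctAtattgtcggcaaaggtctgg
Acaaacaac, 28 nt: AcaaacaacTtgaacgctgacatcttgg
Aatgaatga, 30 nt: AatgaatgaAtaagtaaaagaactatgggt
Acaaacaac, 30 nt: AcaaacaacTtgaacgctgacatcttggag
Actcttcat, 29 nt: ActcttcatAtgttttcggcggcaactcc

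The 10 leading A-first sequences of total small RNA included 5 of these and 5 others. The others are shown because each had a lower share of reads in MARWI-IP.
Atctgtgaa, 31 nt: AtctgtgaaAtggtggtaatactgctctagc
Acgggtgat, 27 nt: AcgggtgatGagaactggagtctgagc
Atctgctga, 28 nt: AtctgctgaAgaaatccagtgtctgaga
Atgaagctc, 29 nt: AtgaagctcAagctgtttgtatacatgtc
Agtaatgat, 29 nt: AgtaatgatGaatgccaaccgctctgatg

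A-first RNAs were a small part of the reads in both datasets and a smaller one in MARWI-IP. They were 3.99% of MARWI-IP reads of 26 to 32 nt (3.986% to 3.994%) and 5.03% of total reads (5.02% to 5.05%). The ratio of these shares, MARWI-IP over total, was 0.793 (0.791 to 0.795), or -0.33 on the log2 scale. The ratio was 0.797 for C-first, 0.379 for G-first and 1.07 for U-first reads. A-first and C-first reads thus had nearly the same ratio, and G-first reads a lower one.

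The order of the datasets turned when each distinct sequence was counted once, with A first in 11.4% of MARWI-IP and 9.57% of total sequences. MARWI-IP was read more deeply, and at a depth of 12001432 reads, that of total small RNA, the expected share of its distinct sequences was 9.52%. The lower share of A-first RNAs in MARWI-IP was thus seen in reads and was not seen in distinct sequences. An A-first sequence had 6.001 reads on average in MARWI-IP against 2.88 in total small RNA, whereas a U-first sequence had 21.1 and 6.10.

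The A-first class was made of very many rare sequences and a few abundant ones. Of distinct A-first sequences, 73.2% in MARWI-IP and 81.5% in the total small RNA were read once, and these made up 12.2% and 28.3% of A-first reads. The share of sequences read once was 64.6% and 71.2% among U-first sequences. In MARWI-IP, A was the first base of 12.5% of sequences read once, 7.10% of those with 11 to 100 reads and 2.15% of those with over 1000 reads. In total small RNA it was the first base of 10.6% of sequences read once, 3.61% of those with 11 to 100 reads and 2.54% of those with more than 100 and up to 1000. It was the first base of 38 of the 815 sequences with over 1000 reads (4.66%). The share of A-first sequences thus fell with abundance in both datasets, except in the highest class of total small RNA.

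Reads were more concentrated on the leading sequences among A-first than among U-first RNAs. The 10 leading sequences held 21.7% of A-first reads in MARWI-IP and 15.5% of those in total small RNA, and the 10 leading U-first sequences held 8.97% and 3.71% of U-first reads. The leading 1000 held 49.5% and 44.1% of A-first reads. A single 30-nt sequence of the Aacgtggaa end held 9.32% of A-first reads in MARWI-IP and 6.94% in the total small RNA.

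Within the chosen lengths, 30 nt was the commonest among A-first reads of both datasets. In MARWI-IP, 29.1% of A-first reads were 29 nt and 36.1% were 30 nt long, and in total small RNA 24.4% and 28.1% were. U-first reads were more often 29 nt long, at 35.5% against 33.3% for 30 nt in MARWI-IP and 30.98% against 29.4% in total small RNA. In total small RNA this order depended on the leading ends. Without the 2 leading A-first ends of each dataset, 30.1% of MARWI-IP reads were 29 nt and 32.1% were 30 nt long, and in total small RNA the order turned, with 25.99% at 29 nt and 24.1% at 30 nt. These ends were Aacgtggaa and Acaaacaac in MARWI-IP and Aacgtggaa and Atctgtgaa in total small RNA.

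Lengths of 29 and 30 nt together made up 65.2% of A-first reads in MARWI-IP against 52.5% in total small RNA. Lengths of 26 to 28 nt made up 21.1% and 29.8%. Lengths of 31 and 32 nt made up 13.7% and 17.8%. Both shorter and longer A-first RNAs were thus less frequent in MARWI-IP. U-first reads differed in the same direction. Their share at 29 and 30 nt was 68.8% for MARWI-IP against 60.4% for total reads. At 26 to 28 nt it was 19.8% against 25.3%, and at 31 and 32 nt 11.4% against 14.3%. The direction of this length difference was thus not particular to A-first RNAs. Relative to all reads of 26 to 32 nt, A-first reads of 30 nt had a ratio of 1.02 (1.01 to 1.02) and those of 29 nt a ratio of 0.948, against 0.432 at 27 nt and 0.448 at 32 nt. Among reads of a single length the A-first share differed less, with ratios from 0.643 at 27 nt to 0.999 (0.985 to 1.01) at 32 nt. At 32 nt the A-first share did not differ beyond counting error. At the borders of the length window, A was first in 5.14% of MARWI-IP and 6.42% of total reads of 26 nt and in 6.50% and 6.69% of those of 25 nt. At 32 nt these shares were 5.003% and 5.009%, and at 33 nt 9.53% and 5.19%.

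The most abundant A-first sequence at each length belonged mostly to the leading ends. In MARWI-IP the Aacgtggaa end led at 26, 30, 31 and 32 nt and the Acaaacaac end at 27, 28 and 29 nt. In total small RNA the Aacgtggaa end led at 26, 29 and 30 nt. The sequences that led at a length and are not printed above follow, to show how the 3′ ends of 1 RNA vary.
Aacgtggaa, 26 nt: AacgtggaaTtctgggcacgcagctc
Acaaacaac, 27 nt: AcaaacaacTtgaacgctgacatcttg
Aacgtggaa, 32 nt: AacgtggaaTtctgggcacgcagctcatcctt
Aagacttta, 32 nt: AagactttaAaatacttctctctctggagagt
The 26-nt form had 7130 MARWI-IP and 1788 total reads, a ratio of 0.449, and the 31-nt form of the same end had 62178 and 3026 reads, a ratio of 2.31. Forms of 1 RNA that differ at the 3′ end alone therefore lay on both sides of 1. The Aagacttta sequence, the leading one of 32 nt in total small RNA, had 1026 MARWI-IP and 1129 total reads, a ratio of 0.102.

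A-first ends with at least 100 reads numbered 3368 in MARWI-IP and 384 in the total small RNA. A form of 29 nt led at 36.2% of the MARWI-IP ends and 27.6% of the total ones, and a form of 30 nt at 37.1% and 31.3%. The leading form had 31 nt at 11.5% and 15.6%, and 27 nt at 1.43% and 5.99%. By median, the leading form took 57.9% of its end's reads in MARWI-IP against 58.6% in total small RNA, where U-first ends had 57.1% and 58.4%. The concentration on 1 form was thus nearly the same for A-first and U-first ends.

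Position 10 was examined next, because an A there without U at the first base is the known form of a ping-pong product. A-first reads had A at position 10 more often than U-first reads in both datasets. The share was 38.8% in MARWI-IP (38.71% to 38.81%), against 42.6% in total small RNA (42.4% to 42.7%). Among U-first reads it was 31.5% and 29.96%. Reads beginning with C or G were not counted at this position, so the excess cannot be called particular to A-first RNAs. Over the other positions from 2 to 26, A averaged 28.8% and 27.5% of A-first reads.

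By reads, position 10 was not the highest in MARWI-IP, where A was at position 8 in 45.3% of A-first reads and 4 positions lay above position 10. The Aacgtggaa and Acaaacaac ends, 13.2% and 6.34% of A-first reads in MARWI-IP, both have A at position 8 and U at position 10. Without the 2 leading ends of each dataset, A held 48.2% of MARWI-IP and 45.1% of total A-first reads at position 10. With the MARWI-IP pair of ends left out of both datasets, the MARWI-IP value was 48.2% (48.10% to 48.21%) and the total value 48.3% (48.21% to 48.48%). No other position from 2 to 26 was higher in either count. With each dataset's own ends left out, the next were position 5 in MARWI-IP, at 40.4%, and position 4 in total small RNA, at 36.8%. Over distinct A-first sequences the share was 38.1% and 45.9%, again the highest of these positions, and the next was position 5 at 35.6% and 34.7%. Distinct U-first sequences had 29.9% and 29.1% at position 10, below position 5 at 36.8% and 35.2%. In MARWI-IP the 2 leading ends decided whether position 10 led by reads. Among A-first reads of sequences with over 100 reads, position 8 was higher than position 10 in both datasets, at 57.6% against 37.9% in MARWI-IP and 62.8% against 34.6% in total small RNA. At 29 and 30 nt it was also higher, at 48.8% against 39.1% and 44.3% against 40.4%.

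Without the leading ends, C was 12.9% and G 16.4% of MARWI-IP and 13.7% and 18.5% of total A-first reads at position 10. U at position 10, the base opposite an A at the start of a partner, was 37.6% of A-first reads in MARWI-IP against 29.2% in total small RNA. It was 22.5% and 22.7% without each dataset's leading ends, and 19.6% in total small RNA without those of MARWI-IP. The values of 22.5% and 22.7% lay below the mean of 28.8% and 27.6% at the other positions without these ends. With all A-first reads, 37.6% and 29.2% lay above the mean of 26.7% and 26.9%. U at position 11 was 48.8% and 42.1% with the leading ends and 36.3% and 34.01% without them.

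The second base was more often A than in U-first reads. It was A in 41.5% of MARWI-IP and 35.0% of total A-first reads, and in 35.2% and 29.4% without the leading ends, against 26.8% and 26.4% of U-first reads. G at position 5 was 10.9% of A-first reads in MARWI-IP and 21.7% in the total small RNA, and 13.6% and 21.3% without the leading ends. Among U-first reads it was 10.02% and 15.5%. The last base was C in 34.1% of MARWI-IP and 39.0% of total A-first reads and A in 16.7% and 17.4%.

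Single A-first ends were then compared between the datasets. The 10 leading ends of MARWI-IP had ratios of shares above 1, from 1.13 to 3.76, and 7 of the 10 leading ends of total small RNA had ratios under 0.4. Ranking by the reads of 1 dataset by itself leans such ratios towards that dataset. Leading ends with other first bases are not given here for comparison, so these ratios describe the chosen ends alone. The Aacgtggaa end had 560133 MARWI-IP and 55774 total reads, a ratio of 1.13 (1.12 to 1.14). It was the leading A-first end of both datasets. Its 30-nt form, the most abundant A-first sequence of both, had 396446 and 41946 reads and held 70.8% of the reads of the end in MARWI-IP against 75.2% in total small RNA. The Acaaacaac end had 269810 MARWI-IP and 16381 total reads, a ratio of 1.85 (1.82 to 1.88). Its 29-nt form, with 120589 and 5090 reads, led in MARWI-IP at 44.7% of the end. Its 31-nt form, with 59746 and 6172 reads, led in total small RNA at 37.7%. The ratio was 2.67 for the 29-nt and 1.09 for the 31-nt form.

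The Atcaatcct end had 73066 MARWI-IP and 4024 total reads, a ratio of 2.04 (1.98 to 2.11), and its 4 commonest forms had the same order in both datasets. The Aatgaatga end had 51147 and 3537 reads, a ratio of 1.63. The Actcttcat end had 42619 and 3227 reads, a ratio of 1.49. Among the ends of MARWI-IP outside the printed sequences, 2 resembled each other, and their leading forms were named after their values were seen.
Aggatagac, 29 nt: AggatagacAgctgaatgagttttatggg
Aggacagac, 30 nt: AggacagacAcctgattaagttttatgggg
They match at 25 of 29 bases. The Aggatagac end had 45964 MARWI-IP and 1433 total reads, a ratio of 3.61 (3.43 to 3.81), and the Aggacagac end had 33428 and 1298 reads, a ratio of 2.90 (2.74 to 3.07). Both were thus more frequent in MARWI-IP, by factors whose intervals do not overlap, and both have A at positions 1 and 10.

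Several ends that led in total small RNA alone were far less frequent in MARWI-IP. The Atctgtgaa end had 10694 MARWI-IP and 18203 total reads, 15.1-fold lower in MARWI-IP. Its forms differed: the 31-nt form had 359 and 11816 reads, 292-fold lower, and the 28-nt form 4903 and 2843 reads. The 31-nt form made up 3.36% of the MARWI-IP and 64.9% of the total reads of the end. The Acgggtgat end had 358 MARWI-IP and 8065 total reads, 200.1-fold lower. The Agtaatgat end had 101 and 3792 reads, 334-fold lower. The Atctgctga end had 77 and 4595 reads, 530.2-fold lower. The Atgaagctc end, in contrast, had 14653 and 4274 reads and was 2.59-fold lower.

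Sequence by sequence, A-first RNAs were below the background among those higher in MARWI-IP and above it among those lower. Sequences with a mean share over both datasets of at least 10 in 1000000 reads of 26 to 32 nt were compared, 282 of them A-first and 11502 in all. Of the 282, 80 (28.4%) were at least 2-fold higher in MARWI-IP, where 33.5% of all compared sequences were. At least 2-fold lower were 105 (37.2%), where 22.8% of all were. The median ratio was 0.958 for A-first, 1.41 for U-first and 1.38 for all sequences. A share at least 10-fold lower was found for 63 A-first sequences (22.3%), against 9.54% of all. Such sequences reached the minimum mean share largely through total small RNA.

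This difference depended on length. Of 68 A-first sequences of 26 to 28 nt, 36 (52.9%) were at least 2-fold lower in MARWI-IP, against 26.3% of all sequences of these lengths, and their median ratio was 0.388 against 1.26. Of 164 of 29 and 30 nt, 46 (28.05%) were lower, against 20.3% of all, and 60 (36.6%) were higher, against 36.3% of all. Their median ratio was 1.32 against 1.49. Of 50 of 31 and 32 nt, 23 (46.0%) were lower, against 29.97% of all. At 29 and 30 nt, A-first sequences were thus higher in MARWI-IP as often as the background.

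The sequences at both extremes of the ratio are shown because they differ most between the datasets. Each reached the minimum mean share largely through the dataset in which it is high, so the size of these ratios partly follows from the minimum. The 5 with the lowest ratios had 0 to 3 MARWI-IP reads. A count of 0 was set to 3 reads and lower counts above 0 were kept, so sequences with 1 read had lower ratios than the one with 0.
Aggacaaag, 30 nt: AggacaaagAcgtgcccggcagacctgccc
Agcagagtg, 31 nt: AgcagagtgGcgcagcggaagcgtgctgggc
Attaagtga, 28 nt: AttaagtgaCgataaagtgtgtctgagg
Attacttga, 29 nt: AttacttgaTgacaataaaagatctgata
Attacttga, 28 nt: AttacttgaTgacaataaaagatctgat
The Aggacaaag sequence had 1 MARWI-IP and 408 total reads, a ratio of 0.000276 (6.97e-06 to 0.00155). The Agcagagtg sequence had 1 and 383 reads, and its end as a whole 193 and 919 reads. The Attaagtga sequence had 1 and 258 reads, and the 29-nt Attacttga sequence 3 and 673. The 28-nt Attacttga sequence had 0 of 106621469 MARWI-IP and 344 total reads, so its share, with 3 reads taken as the upper limit for a count of 0, was at least 1019-fold lower.

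The 5 with the highest ratios were 29 or 30 nt long.
Agattgtga, 29 nt: AgattgtgaGgtctggctctgaccagtgg
Aatatggtt, 29 nt: AatatggttTtgagatgtttgtataagtc
Actctttct, 29 nt: ActctttctTatgtgttcctaacgcctgt
Atcaagtga, 29 nt: AtcaagtgaAtagtagttttgactaagct
Agggtagat, 30 nt: AgggtagatTtgagaaaacagactttcatg
The Agattgtga sequence had 2921 MARWI-IP reads and 0 of 12001432 total reads, at least 110-fold higher in MARWI-IP. Its whole end had 5049 and 0 reads, at least 189-fold higher. The Aatatggtt sequence had 13856 and 79 reads, a ratio of 19.7 (15.8 to 24.95), and the Actctttct sequence 6661 and 59 reads, a ratio of 12.7 (9.84 to 16.7). The Atcaagtga sequence had 3530 and 59 reads, a ratio of 6.73, and the Agggtagat sequence 1882 and 33, a ratio of 6.42. MARWI-IP includes an animal that total small RNA does not, so differences between animals cannot be told apart from recovery with MARWI.

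Several A-first sequences that were low in MARWI-IP held the letters of both boxes of a C/D snoRNA, a class that guides RNA methylation in the nucleolus. Reads with TGATGA in the first 12 bases and CTGA in the last 8 bases were counted, a rule chosen after the sequences had been seen and applied to the strand as read. In capitals here are those letters in the 4 such A-first sequences with the most reads in total small RNA.
Acgggtgat, 27 nt: acgggTGATGAgaactggagtCTGAgc
Agtaatgat, 29 nt: agtaaTGATGAatgccaaccgctCTGAtg
Atcaatgat, 29 nt: atcaaTGATGAaactagccaaatCTGAac
Agcctgtga, 31 nt: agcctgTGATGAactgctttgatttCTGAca
Such reads were 0.0534% of A-first reads in MARWI-IP (0.0513% to 0.0557%), against 2.84% in total small RNA (2.80% to 2.88%). Over all reads of 26 to 32 nt they were 0.0242% and 0.292%, and over U-first reads 0.0212% and 0.0946%. Relative to all reads the A-first ones were 67.03-fold lower in MARWI-IP. This value includes the sequences that led to the rule, so it describes them and is no test of the motifs. The Acgggtgat sequence alone gave 7357 of the 17149 such A-first reads in total small RNA. The 4 printed sequences had 303, 80, 59 and 31 MARWI-IP reads and 7357, 3052, 1215 and 877 total reads, and were 183-fold to 339-fold lower. Among the 282 compared A-first sequences, 9 held both motifs, with ratios from 0.000502 to 0.00891. At such ratios a sequence reached the minimum mean share through total small RNA alone, so the range partly follows from the minimum. The motifs were not always accompanied by a low ratio, and the exception with the most MARWI-IP reads is shown.
Exception, 32 nt, of another end: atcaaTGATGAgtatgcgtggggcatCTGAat
It had 422 MARWI-IP and 60 total reads, a ratio of 0.792 (0.603 to 1.06). A 30-nt A-first sequence with both motifs had 229 and 112 reads, a ratio of 0.230. One of 29 nt had 96 and 5 reads, a ratio of 2.16 (0.895 to 6.81). With all such reads left out, the A-first share was 3.99% in MARWI-IP against 4.90% in total small RNA.

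Another group of A-first RNAs began with a repeat of 4 letters and was more frequent in MARWI-IP. Reads with AATGAATGAA in the first 12 bases, the start of the leading 10-nt pair given below and also chosen after seeing the data, were 1.74% of A-first reads in MARWI-IP and 0.760% in the total small RNA. Over all reads of 26 to 32 nt they were 0.163% and 0.128%, on the strand as read. The repeat letters are in capitals in the 2 leading ones.
Aatgaatga, 30 nt: AATGAATGAAtaagtaaaagaactatgggt
Repeat RNA of another end, 29 nt: AATGAATGAAtgaatgagtgaataagtgg
The first had 40707 MARWI-IP and 2749 total reads, a ratio of 1.67 (1.60 to 1.73), and the other 10194 and 196 reads, a ratio of 5.85 (5.08 to 6.78). A-first reads with the repeat had a ratio of 1.82 together. The Aatgaatga end gave 51147 of their 74223 MARWI-IP reads, so the joint ratio is largely that of 1 end. The ratio was not above 1 beyond counting error in each form. It was 1.01 (0.901 to 1.13) for the 27-nt and 2.64 (2.30 to 3.05) for the 29-nt form of that end. For a 31-nt sequence of another end it was 1.23 (1.07 to 1.42).

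The A-first RNAs were next compared with their neighbours, since reads may start 1 base away from the 5′ end of a more abundant RNA. Of A-first reads, 17.7% in MARWI-IP (17.63% to 17.70%), against 11.4% in total small RNA (11.3% to 11.5%), belonged to an end that lay 1 nt upstream or downstream of a U-first end with more reads. The shares were 28.6% and 22.0% for C-first and 27.5% and 8.59% for G-first reads. In MARWI-IP the U-first end lay 1 nt downstream for 9.72% and 1 nt upstream for 9.96% of A-first reads. Most A-first reads thus had no stronger U-first neighbour at this distance. A-first reads that equalled a more abundant U-first end in every base of the end but the first were 0.0621% in MARWI-IP against 0.108% in total small RNA.

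The leading ends differed in their neighbours. Around the Aacgtggaa end, with 560133 MARWI-IP reads, 10688 reads began 1 nt upstream and 3546 began 1 nt downstream, so its 5′ end was sharp. The Acaaacaac end had 237 reads 1 nt upstream and 642 reads 1 nt downstream. The Aatgaatga end, with 51147 MARWI-IP and 3537 total reads, lay 1 nt downstream of G-first reads that numbered 87878 and 10148. The Actcttcat end had U-first reads 1 nt upstream, at 19794 in MARWI-IP and 1175 in the total small RNA, and C-first reads 1 nt downstream, at 21071 and 819. The Atgtctgat end, with 18690 MARWI-IP reads, was surpassed by C-first reads 2 nt upstream, at 72502. It was named after its neighbours had been seen. Abundant A-first RNAs thus included sharp ends and members of staggered groups.

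Complementary partners were sought from sequence, since the 5′ ends of ping-pong partners share 10 complementary bases. Read pairs of an A-first RNA with any RNA of 26 to 32 nt were divided by the number that the base shares at each position predict. Pairs over 10 nt were 2.29 times the expected number in MARWI-IP and 3.46 times in total small RNA. At 9 nt these ratios were 1.296 and 2.33, and at 11 nt they were 5.09 and 3.07. For U-first RNAs they were 42.6 and 16.6 at 10 nt against 1.29 and 1.28 at 9 nt and 1.70 and 2.19 at 11 nt. A-first ratios went on to 6.89 and 6.34 at 12 nt and 4.88 and 26.4 at 14 nt. The value at 10 nt thus lay below those at 12, 13 and 14 nt in both datasets, and in total small RNA it lay above those at 9 and 11 nt. These ratios describe a library and are not tests, and the pairs were not placed on a genome.

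Single pairs governed the counts. Without the 5 leading pairs at each overlap, A-first pairs in MARWI-IP were 0.714 times the expected number at 9 nt, 1.52 at 10 nt and 1.35 at 11 nt, and in total small RNA 0.909, 2.33 and 2.16. The expected number was still that of all pairs, here and below, so values without the leading pairs lean low. In both datasets 10 nt was then above 9 and 11 nt. At 12, 13 and 14 nt the values were 2.53, 1.69 and 1.95 in MARWI-IP and 4.30, 6.10 and 16.5 in total small RNA, all above that at 10 nt. For U-first RNAs the values at 10 nt were then 3.53 and 5.34. At 12, 13 and 14 nt the U-first values were 1.25, 1.53 and 1.18 in MARWI-IP, below that at 10 nt. In total small RNA they were 2.58, 3.80 and 6.55, so 14 nt lay above 10 nt there. Over 13 nt, A-first pairs were 73.3 times the expected number in MARWI-IP, against 35.7 times in total small RNA, and 1 pair made up 94.9% and 73.2% of it. Its members are shown with positions 1 and 10 in capitals.
A-first member, 13 nt: AagttctttAgta
U-first member, 13 nt: TactaaagaActt
Reads that begin with the A-first member numbered 4421 in MARWI-IP against 357 in total small RNA, and those that begin with the U-first member 253322 and 14315.

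The 3 leading A-first starts over 10 nt in MARWI-IP were AatgaatgaA with 74172 reads, AaccaatggA with 468 and AagatcaagA with 1791. Their partners were TtcattcatT with 3012 reads, TccattggtT with 306985 and TcttgatctT with 71393. These pairs made up 10.9%, 7.02% and 6.25% of the A-first pairs. In total small RNA the leading starts were AtctgtgaaA with 18317 reads, AtcctgatgA with 406 and AatgaatgaA with 4581. Their partners were TttcacagaT with 456 reads, TcatcaggaT with 6854 and TtcattcatT with 314. A partner over 10 nt begins with U exactly where position 10 is A, as in all of these starts. In most of these pairs 1 member was far more abundant than the other.

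A-first ends with A at position 10 had more partners over 10 nt, relative to expectation, than those without it. By reads, pairs over 10 nt were 2.14 times the expected number for MARWI-IP and 3.48 times for total small RNA with A at position 10, against 1.18 and 1.26 without it. With A at position 10 all partners over 10 nt begin with U and without it none do, so the groups differ in partners too. By reads at 9 nt it was 1.52 and 2.09 with A, against 1.19 and 2.51 without, so the order turned in total small RNA. By reads at 11 nt it was 7.74 and 4.52 with A, against 2.80 and 2.05 without, above the values at 10 nt. At 10 nt with each end counted once it was 1.90 and 2.13 with A, against 1.24 and 1.43 without. At 9 nt, ends counted once had 1.73 and 1.80 with A and 1.49 and 1.55 without. At 11 nt the values were 2.79 and 3.57 with A and 1.54 and 1.89 without. Without the 5 leading pairs, ends counted once had 1.42 and 1.47 with A, against 1.37 and 1.45 without, at 9 nt. At 10 nt they had 1.61 and 1.73, against 1.21 and 1.39, and at 11 nt 2.03 and 2.47, against 1.503 and 1.80. With these pairs out, ends counted once were thus close at 9 nt, with or without A, and stayed apart at 10 and 11 nt. By reads without these pairs, MARWI-IP had 0.879 with A against 0.492 without it at 9 nt. At 10 nt it had 1.41 against 0.872, and at 11 nt the order turned, with 1.06 against 1.12. Total small RNA had 1.07 against 0.705 at 9 nt, 2.31 against 1.07 at 10 nt and 2.65 against 1.297 at 11 nt. The pattern of ends counted once was thus not that of reads.

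By reads, A-first RNAs were less often found in both datasets than U-first RNAs. Of A-first reads, 73.1% in MARWI-IP and 72.6% in the total small RNA had a sequence present in the other dataset, against 92.2% and 89.96% of U-first reads. Of distinct A-first sequences, 9.93% of those in MARWI-IP and 33.6% of those in total small RNA were shared. For U-first sequences these shares were 17.2% and 47.2%. A-first sequences also had fewer reads each, and the part of this in the overlap was not tested.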

How the data were processed

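Per the labels' protocols, RNA bound to immunoprecipitated MARWI was purified with the miRNeasy kit, total small RNA was purified by size on a gel, and libraries were made with the NEBNext small RNA kit. Bowtie, Cufflinks and TopHat are listed in the submitters' processing notes, with no version. How reads were trimmed and filtered is not given in the sources used here. The deposited files give read counts per distinct sequence, without normalization: 110209593 reads of 24 to 33 nt for MARWI-IP, a length class and not the depth of the library, and 14138166 reads of 20 to 51 nt for total small RNA. The RNA-seq table was not used.

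Shares were computed over reads of 26 to 32 nt. Ratios have exact intervals from the binomial of both read counts, and a count of 0 was set to 3 reads. No genome and no small RNA sequences of known genes were at hand, so reads were neither placed nor named. Calculations were tested on simulated reads. The members and lists were chosen with earlier results of these data known. Sequences named were the 10 most abundant of each dataset, the leading one at each length, the 5 highest and 5 lowest ratios and the 3 leading complementary starts, and others are marked as chosen later. Alternatives were other length windows, distinct sequences, other minima and leaving out leading sequences. Calculations ran in Python 3.11.15 with scipy 1.17.1, numpy 2.4.6 and pandas 2.3.3.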

Additional observations from a re-analysis of the deposited data

Results flagged for a closer look

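Reads outside 26 to 32 nt entered no comparison above, and A-first RNAs were present among them above the limit that a count of 0 allows. Of reads of 24, 25 and 33 nt, 7.04% in MARWI-IP (7.02% to 7.07%) and 6.40% in total small RNA (6.35% to 6.45%) began with A. In total small RNA, 24.03% of reads of 20 to 23 nt (23.9% to 24.1%), the lengths of microRNAs, and 13.5% of reads of 34 to 51 nt (13.3% to 13.6%) began with A.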

How the results depend on the processing

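The A-first share, MARWI-IP before total small RNA, was 4.09% and 5.12% over 24 to 33 nt, 3.90% and 4.79% over 28 to 31 nt, 11.4% and 9.57% of distinct sequences, 3.65% and 4.17% without sequences read once, and 3.15% and 4.28% without the 10 most abundant A-first sequences. Added after seeing the data, it was 3.24% and 4.44% without the 2 leading ends, 4.90% of total reads without both box motifs, and 9.52% of distinct MARWI-IP sequences after thinning. With the 2 leading MARWI-IP ends left out of both datasets, also added later, it was 3.24% and 4.46%. The log2 ratio of the shares was -0.32, -0.30, 0.25, -0.19 and -0.44 under the first 5 of these settings, in that order, so it reversed for distinct sequences. It was -0.46 without the leading ends of each dataset or those of MARWI-IP, -0.30 without the motifs and -0.0075 for distinct sequences after thinning.

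A at position 10 was 38.7% and 43.0% over 24 to 33 nt, 38.7% in MARWI-IP over 28 to 31 nt, 38.1% and 45.9% of distinct sequences, 39.0% and 41.5% without sequences read once, 46.0% and 46.7% without the 10 sequences, 48.2% and 45.1% without the ends, and 43.8% in total small RNA without the motifs. The ends left out differed between the datasets. With the MARWI-IP ends left out of both, the values were 48.2% and 48.3%, and without the 10 leading ends 44.4% and 47.0%, in the order of the full data. Lengths of 29 and 30 nt held 61.5% and 48.4%, 73.9% and 65.2%, 47.1% and 42.2%, 68.0% and 57.4%, and 60.5% and 50.1% under the 5 settings named first, 62.2% and 50.1% without the ends, 62.2% and 48.9% without the MARWI-IP ends and 53.0% of total reads without the motifs. The share 1 nt from a stronger U-first end was 18.2% and 11.2% over 24 to 33 nt, 16.9% in MARWI-IP over 28 to 31 nt, 17.5% and 10.4% without sequences read once, 23.001% and 13.5% without the 10 sequences, 17.8% and 11.8% with ends of 16 nt, and 21.9% and 12.996% without the leading ends, or 21.9% and 12.95% without those of MARWI-IP.

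Of A-first sequences, 44 of 365 (12.1%) were at least 2-fold higher and 207 (56.7%) lower in MARWI-IP among those with 100 total reads, against 15.9% and 41.8% of all sequences. With a mean share of 50 in 1000000 reads it was 14 of 56 (25%) and 22 (39.3%), against 37.7% and 22.4% of all. At 4-fold, 19 of 282 (6.74%) were higher and 80 (28.4%) lower, against 9.57% and 15.2% of all. The cause of these changes was not tested. No paired analysis was possible because each dataset is 1 column, and for the same reason no replicate could be left out.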
